A study of Mus musculus with 16 samples.

Results

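Regulators of G-protein signalling (RGS proteins) were followed through hearts that lacked the chromatin remodeller gene *Chd7* in the anterior mesoderm. Of the 10 genes considered, *Rgs2*, *Rgs3*, *Rgs4*, *Rgs5*, *Rgs6*, *Rgs10*, *Rgs12*, *Rgs14*, *Rgs16* and *Rgs19*, 9 had a probe set of their own out of 19937 genes measured, and *Rgs10* was not analysed here because no probe set was annotated to it. The genes were chosen by name, and *Rgs5* and *Rgs6* were singled out from their measured values at E11.5, where they differed between mutant and control hearts in opposite directions. The E11.5 comparison of these genes is therefore a description without a test, as are the stage changes of *Rgs5* and *Rgs6*. The mutants were *Chd7* fl/fl;*Mesp1-Cre* embryos on a C57BL/6 background, and the controls were labelled WT, with 4 hearts per genotype at E11.5 and 4 at E13.5. The labelled cross was between *Chd7* fl/fl mice and mice heterozygous for the floxed allele that carried *Mesp1-Cre*. The study's text gives the array controls as *Chd7* +/+;*Mesp1-Cre*, which this cross cannot produce, so the control genotype is not settled here. *Mesp1-Cre* recombines in cardiac and pharyngeal mesoderm and not in the neural crest, and a whole heart also holds nerves, blood and other cells outside that lineage.

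RGS proteins shorten signalling from G-protein-coupled receptors. They bind the active, GTP-bound alpha subunit of a heterotrimeric G protein and speed the hydrolysis of GTP, after which the alpha subunit rejoins its beta and gamma partners and the signal ends. Of the R4 proteins here, *Rgs2*, *Rgs4*, *Rgs5* and *Rgs16* are small and consist of little more than this catalytic domain, while *Rgs3* is longer. The R7 protein *Rgs6* works as a stable complex with the beta subunit Gnb5. The R12 proteins (*Rgs10*, *Rgs12* and *Rgs14*) include scaffolds that also bind other signalling proteins, and *Rgs19* belongs to the RZ group. In adult heart and vessels *Rgs5* is known as a gene of pericytes and vascular smooth muscle, and *Rgs6* restrains parasympathetic slowing of the sinus node through the muscarinic receptor.

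Expression was measured with Affymetrix Mouse Gene 1.0 ST arrays, and all values are log2 signals, where a difference of 1 is a doubling. The targeted gene was checked first, in the brightest of the 30 probe sets of *Chd7*, and the others are not described here. *Chd7* lay between 9.16 and 9.73 in mutant hearts against 10.64 to 10.89 in control hearts at E11.5. At E13.5 it lay between 8.88 and 9.07 against 9.83 to 10.30. The log2 FC was -1.29 at E11.5 and -1.08 at E13.5 (adjusted p = 0.00132 and 0.0209, limma). It was not examined whether the probes lie in the deleted part of the gene. At E11.5, 2 of 4 mutant and 4 of 4 control hearts had high expression of Y-linked genes, and at E13.5 the counts were 1 of 4 and 2 of 4. A total of 3 hearts stood somewhat apart from the rest, with 27 genes in mutant E11.5 replicate 3, 38 in mutant E11.5 replicate 4 and 21 in control E13.5 replicate 1 lying over 1 log2 unit above every other heart of the stage, against 5 or fewer in the other hearts. The arrays of the stages differed in spread, with an SD within arrays of 2.38 to 2.42 at E13.5 and 2.18 to 2.27 at E11.5, so a stage change and a difference in array runs or normalisation cannot be told apart. The number of arrays limits the precision, and as the labels do not give litters, p-values measure only the spread between these hearts.

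The promoters of *Rgs5* and *Rgs6*, the genes that differed most at E11.5, and of *Rgs4*, which lies next to *Rgs5* on chromosome 1, are shown because these genes behaved differently. Each runs 5′ to 3′ over 300 bases around the start site, from RefSeq on build GRCm38.p6, and capitals mark every match to the motifs described after the sequences.
Rgs5 promoter, chr1:169655251-169655550 (plus strand): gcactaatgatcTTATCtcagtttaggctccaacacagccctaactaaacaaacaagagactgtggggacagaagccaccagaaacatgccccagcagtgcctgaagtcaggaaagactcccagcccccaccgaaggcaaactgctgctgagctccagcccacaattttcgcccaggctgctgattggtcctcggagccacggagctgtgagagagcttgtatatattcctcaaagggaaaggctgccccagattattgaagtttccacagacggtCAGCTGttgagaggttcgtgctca
Rgs6 promoter, chr12:82617249-82617548 (plus strand): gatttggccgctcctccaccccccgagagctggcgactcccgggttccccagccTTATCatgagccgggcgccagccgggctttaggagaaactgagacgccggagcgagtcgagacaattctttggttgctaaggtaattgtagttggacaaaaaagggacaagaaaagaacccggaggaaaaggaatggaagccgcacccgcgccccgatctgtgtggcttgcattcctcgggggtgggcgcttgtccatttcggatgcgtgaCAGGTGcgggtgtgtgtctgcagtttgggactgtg
Rgs4 promoter, chr1:169747593-169747892 (minus strand): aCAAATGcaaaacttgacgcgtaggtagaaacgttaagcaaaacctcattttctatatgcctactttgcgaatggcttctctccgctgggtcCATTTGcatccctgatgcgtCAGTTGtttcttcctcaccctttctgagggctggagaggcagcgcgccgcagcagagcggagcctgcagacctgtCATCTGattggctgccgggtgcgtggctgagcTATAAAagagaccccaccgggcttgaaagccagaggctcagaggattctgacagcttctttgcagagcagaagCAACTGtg

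Both strands were searched for 5 motifs: the TATA box TATAAA, the GC box GGGCGG, the E-box CANNTG, the GATA motif GATAA and the CArG box bound by serum response factor. The *Rgs4* promoter held a TATA box that began at position -31 from the start site, and 5 E-boxes. The *Rgs5* and *Rgs6* promoters each held 1 E-box and 1 GATA motif and no TATA box, and none of these 3 sequences held a GC box or a CArG box. Among 32841 mouse promoters of the same length, 72.3% held an E-box, 35.7% a GC box, 25.4% a GATA motif, 13.6% a TATA box and 1.63% a CArG box. The *Rgs6* promoter was the richest of the 3 in CG pairs, with 21 against 13 in *Rgs4* and 6 in *Rgs5*, and the median over all promoters was 7. A sequence was listed for 9 of the 10 genes, all but *Rgs14*. These matches describe the letters alone.

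*Rgs5*, an R4 protein of vascular mural cells, was the lowest of all 9 genes relative to control at E11.5. Its signal was 9.16, 7.04, 8.70 and 7.73 in the 4 mutant hearts, against 9.92, 9.80, 10.57 and 10.48 in the 4 control hearts. The highest mutant value was thus below the lowest control value, and the mutant hearts were themselves spread over a 4.35-fold range, whereas the control hearts covered a 1.70-fold range. The means were 8.15 ± 0.95 in mutant hearts and 10.19 ± 0.39 in control hearts (SD, n = 4 each), a log2 FC of -2.04 (standard error 0.38), or 24.3% of the control level. Only 1 of 19937 genes had a lower log2 FC in this comparison. In whole-heart RNA, fewer cells that express a gene and less RNA per cell cannot be told apart.

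At E13.5 the *Rgs5* groups were close together, and the sign of the difference was positive. Mutant hearts had 9.55, 9.98, 9.39 and 9.42, against 8.59, 9.17, 9.56 and 9.72 in control hearts, and the groups overlapped. The log2 FC was 0.32 (standard error 0.38, 95% interval -0.48 to 1.12, unadjusted p = 0.402, adjusted p = 1 by limma). Set side by side, the mutant effect at E13.5 exceeded that at E11.5 by 2.36 (standard error 0.53), a difference that was not tested because the E11.5 values chose the gene. The genotypes moved in opposite directions with stage. In mutant hearts *Rgs5* was higher at E13.5 than at E11.5 by 1.43 (standard error 0.38), and in control hearts it was lower at E13.5, with a log2 FC of -0.93 (standard error 0.38), with all hearts of one stage apart from those of the other in both genotypes. Stages apart were common, in 8436 of 19937 genes in control hearts and 7777 in mutant hearts. Ordered by mean level, control E11.5 hearts came highest at 10.19, then mutant E13.5 at 9.58, control E13.5 at 9.26 and mutant E11.5 hearts lowest at 8.15. The ranges of neighbours in this order overlapped in every case, which does not show that their means are equal.

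**Figure D1:**
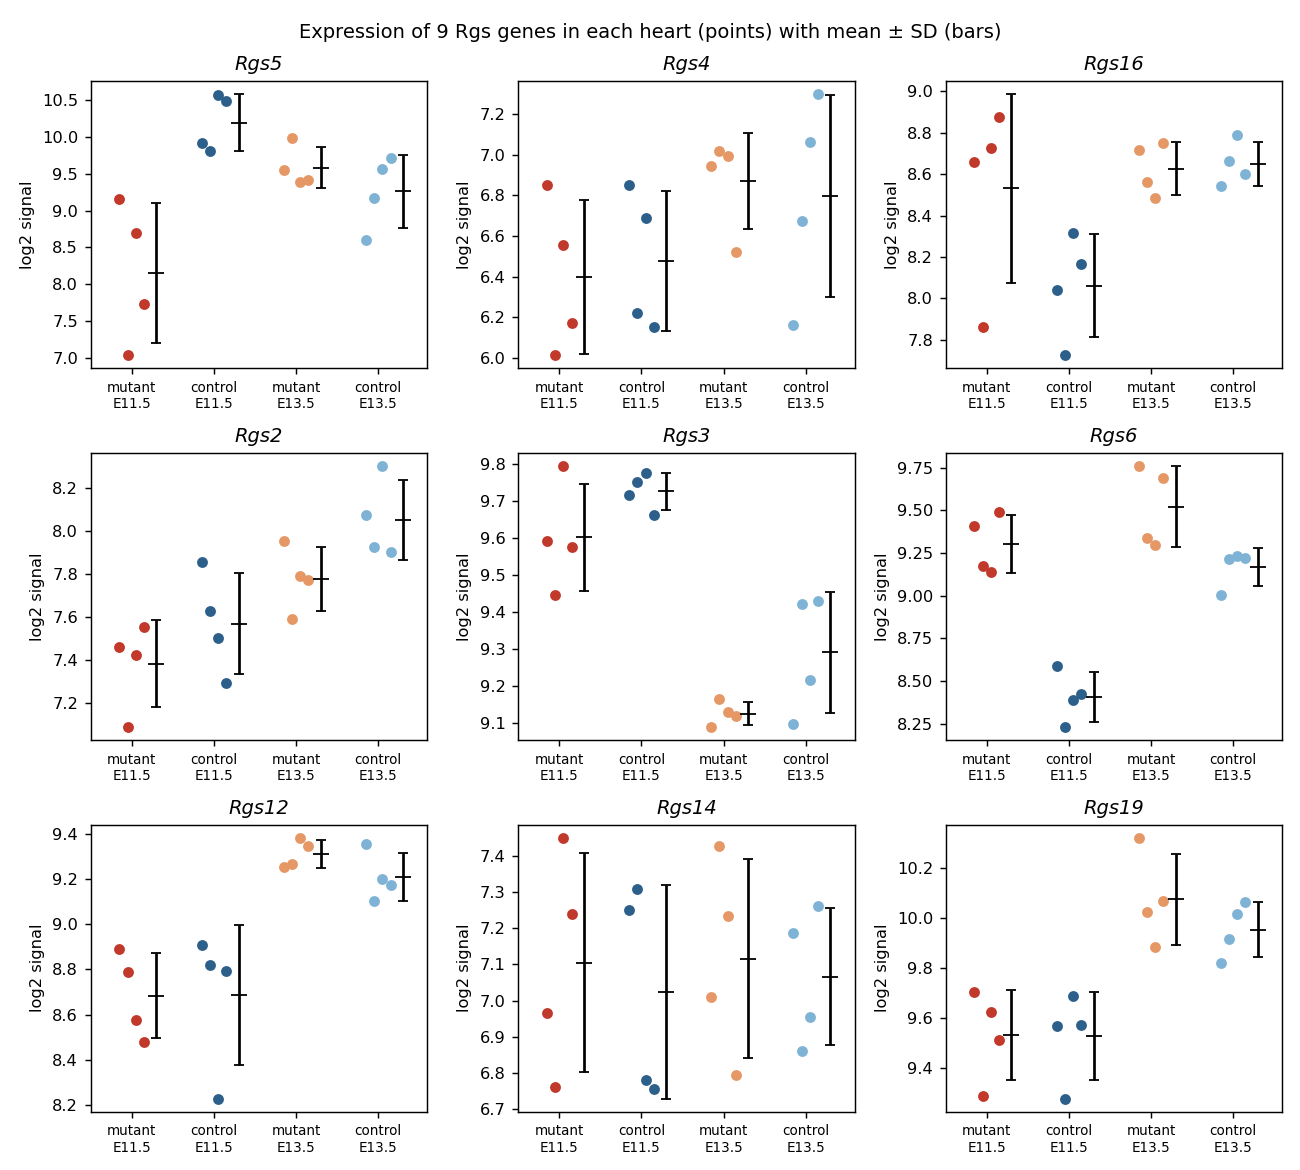
Log2 signal (vertical axes, scaled for each gene) of the 9 measured Rgs genes in every heart, with points for hearts and bars for the mean and SD of 4 hearts, in mutant and control groups at E11.5 and E13.5. Rgs5 lies at 7.04 to 9.16 in mutant hearts at E11.5, below the controls at 9.80 to 10.57, and Rgs6 lies at 9.14 to 9.49, above the controls at 8.23 to 8.59.

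How far the *Rgs5* value at E11.5 depended on single hearts is given as a description, since groups that do not overlap fix its sign. The log2 FC was -2.37 when mutant E11.5 replicate 1 was omitted and -1.67 when replicate 2 was, the heart with the lowest value. Among hearts with high Y-linked expression, 2 mutant hearts stood at 7.04 and 8.70 against the 4 control hearts, a log2 FC of -2.33. Pericyte markers were set beside *Rgs5*. The summed level of 11 such genes is a measure in which bright probe sets weigh most. At E11.5 it was 12.78, 12.78, 12.88 and 13.19 in mutant replicates 1 to 4, against 12.88 to 12.91 in control hearts. All mutant hearts but replicate 4, which was among the hearts that stood apart, thus lay at or below the lowest control heart. The median log2 FC of those 11 genes was 0.13 and none passed the test. Values were positive in *Kcnj8*, *Ndufa4l2*, *Notch3*, *Higd1b*, *Mcam*, *Cox4i2* and *Anpep*, and negative in *Abcc9*, *Pdgfrb*, *Vtn* and *Cspg4*. In *Abcc9* and *Pdgfrb*, as in *Rgs5*, all mutant hearts lay below the control hearts. Groups were apart in 3.93% of all genes. Of these markers, *Kcnj8*, a potassium channel subunit of pericytes, had a log2 FC of 0.60 (adjusted p = 0.446, limma), its partner *Abcc9* had -0.48 (adjusted p = 0.272) and the receptor *Pdgfrb* had -0.24 (adjusted p = 0.419). At E13.5 groups were apart in 4.08% of all genes. All mutant hearts again lay below the control hearts in *Abcc9* (log2 FC -0.48) and *Pdgfrb* (-0.20), without a call. *Rgs5* differed from them there, with 0.32 and overlapping groups. The part of these markers in the *Rgs5* value was not tested. For 9 smooth muscle markers the summed level was 14.26 to 14.57 in mutant hearts against 14.21 to 14.35 in control hearts, with a median log2 FC of 0.08 and 0 genes called.

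The spread of *Rgs5* among hearts of a group was widest in mutant E11.5 hearts, with deviations of -1.12 to 1.00 from the group mean. Other genes deviated with it. After subtracting group means, the 5 genes that followed *Rgs5* most closely over the 16 hearts were *Fbln5* (r = 0.949), *Dmbt1* (0.911), *Eln* (0.907), *Pgam2* (0.905) and *Casq2* (0.891). These correlations share arrays and normalisation and are a description, in which the mutant E11.5 hearts weigh most. In mutant E13.5 hearts *Pgam2* deviated by only -0.022 to 0.024, beside -0.19 to 0.40 in *Rgs5*. *Eln* encodes elastin and *Fbln5* a fibulin that elastic fibres need, while *Pgam2* and *Casq2* are genes of muscle glycolysis and of calcium storage in the sarcoplasmic reticulum. *Fbln5* was 10.12, 8.24, 9.90 and 8.54 in mutant E11.5 replicates 1 to 4, against 9.83, 9.35, 9.996 and 9.95 in the controls. *Eln* was 9.69, 7.88, 9.76 and 8.35 in the same mutant hearts, against 9.57, 9.32, 9.67 and 9.61 in the controls. The mutant hearts with the lowest *Rgs5*, replicates 2 and 4, were thus also lowest in *Fbln5* and *Eln*, but for these genes the other mutant hearts lay within or near the control range. With stage in control hearts, *Fbln5*, *Eln*, *Pgam2* and *Casq2* had log2 FC values of 1.21, 1.39, 1.03 and 2.17, while *Dmbt1* had -0.07 and *Rgs5* -0.93. The summed level of 9 macrophage markers, 11.60, 10.61, 11.44 and 10.94 in mutant E11.5 replicates 1 to 4 against 10.70 to 10.88 in controls, took the same order as *Rgs5* among the mutant hearts. Over the 16 hearts, after subtracting group means, its r with *Rgs5* was 0.634. Other marker lists went against *Rgs5*, with -0.597 for cushion mesenchyme, -0.5 for cardiomyocyte and -0.498 for endothelial and endocardial markers. The part of any of these lists in the *Rgs5* value was not tested.

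**Figure D2:**
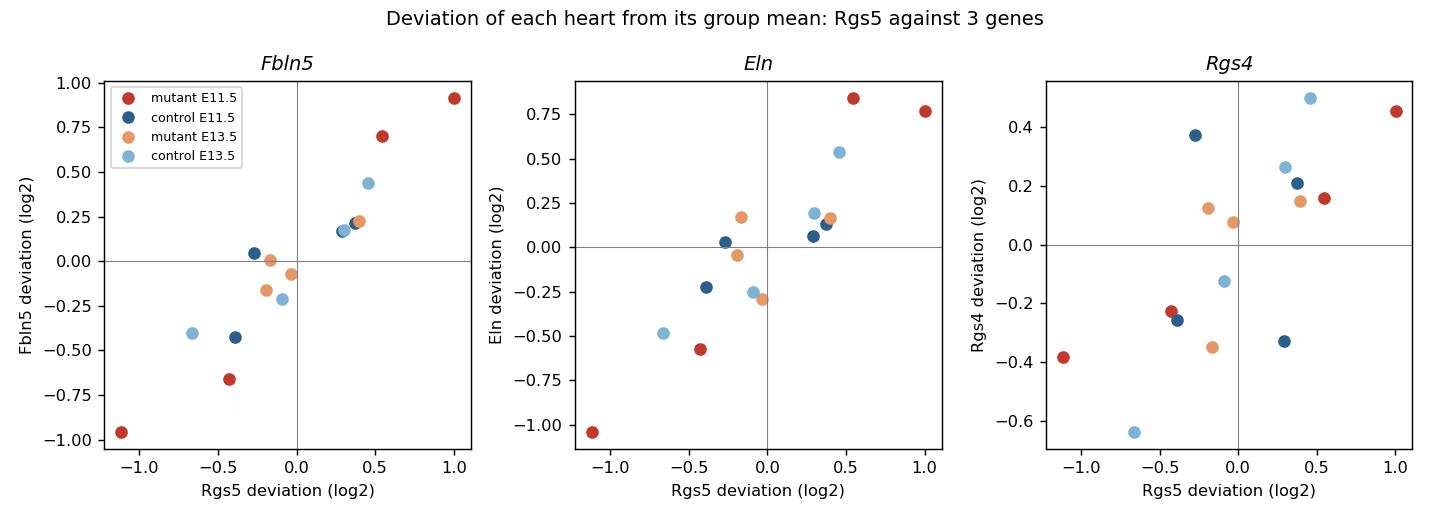
Deviation of each heart from the mean of its group, in log2 units, for Rgs5 (horizontal axes) against Fbln5, Eln and Rgs4 (vertical axes), with 16 hearts coloured by group. The widest points along the Rgs5 axes are mutant E11.5 hearts, while along the Rgs4 axis control E13.5 hearts reach farthest. The correlations over the hearts are 0.949, 0.907 and 0.709.

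By raw values rather than deviations, the pattern most like that of *Rgs5* over the 16 hearts was that of *Stmn2*, a tubulin-binding protein of neurons (r = 0.843), followed by *Vgll3*, *Gpatch2* and *Dnajc24* (0.814 each) and *Tmem26* (0.789). *Stmn2* was 7.23, 5.96, 6.83 and 6.54 in mutant hearts at E11.5, against 7.18, 7.27, 7.49 and 7.84 in control hearts. Its log2 FC was -0.81 at E11.5 and 0.36 at E13.5 (standard error 0.27 each), a smaller change with the same pair of signs as *Rgs5*. As *Stmn2* was picked by likeness over raw values, which hold the group means, the shared signs are no separate result.

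*Rgs6*, the R7 protein, was higher in mutant hearts at E11.5. Its signal was 9.41, 9.17, 9.14 and 9.49 in mutant hearts, against 8.59, 8.23, 8.39 and 8.42 in control hearts, and the groups did not overlap. The means were 9.30 ± 0.17 in mutant hearts and 8.41 ± 0.15 in control hearts (SD, n = 4 each), a log2 FC of 0.90 (standard error 0.13), or 1.86-fold. In this comparison 32 of 19937 genes had a higher log2 FC. The value lay between 0.83 and 0.96 when each heart was left out in turn, and was 0.75 among the hearts with high Y-linked expression. Over all genes, 3.93% had groups that did not overlap at E11.5 and 0.251% passed the threshold used throughout (adjusted p under 0.05 and log2 FC over 0.5 in size). Since this comparison singled out *Rgs5* and *Rgs6*, the only 2 of the 9 genes whose groups did not overlap, nothing is read from their count.

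At E13.5 the *Rgs6* values kept their order but lay closer together. Mutant hearts had 9.76, 9.34, 9.30 and 9.69, against 9.004, 9.22, 9.23 and 9.22 in control hearts, and every mutant heart again lay above every control heart. The log2 FC was 0.35 (standard error 0.13, 95% interval 0.08 to 0.63), with an unadjusted p = 0.0147 and an adjusted p = 1 over all probe sets (limma), so it did not pass. *Rgs6* was the only 1 of the 9 genes with groups apart at E13.5, a state shared by 4.08% of all genes. The mutant effect was smaller at E13.5 than at E11.5 by a difference of -0.54 (standard error 0.18, not tested). With stage, *Rgs6* had a log2 FC of 0.22 in mutant hearts, where the stages overlapped, and of 0.76 in control hearts, where they did not (standard error 0.13 each). After quantile normalisation over all 16 arrays these stage values were -0.005 and 0.59. In the values as deposited, the stages did not overlap for 8436 of 19937 genes in control hearts. Ordered by mean level, mutant E13.5 hearts stood at 9.52, mutant E11.5 at 9.30, control E13.5 at 9.17 and control E11.5 hearts at 8.41, and all but the last step lay within overlapping ranges.

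Genes known for the tissue in which *Rgs6* acts were examined beside it. The summed level of 9 sinus node markers was 12.62 to 13.05 in mutant hearts against 12.26 to 12.61 in control hearts at E11.5, so the groups did not overlap, and 12.42 to 13.04 against 12.48 to 12.74 at E13.5. Their median log2 FC was 0.36 at E11.5 and -0.01 at E13.5. None of the 9 passed the test at either stage. The transcription factor *Shox2* had 1.03 (adjusted p = 0.257, limma), the pacemaker channel *Hcn4* 0.40 (adjusted p = 0.306) and the transcription factor *Isl1* -0.44 (adjusted p = 0.277) at E11.5. Within groups, the summed sinus node level hardly followed *Rgs6* (r = 0.047 over 16 hearts). Of the 15 marker lists, those whose level followed *Rgs6* with r over 0.5 in size were hypoxia-induced genes (0.569), pericyte (0.554), smooth muscle (0.539) and skeletal muscle markers (-0.519). At E11.5 the 20 hypoxia-induced genes had a summed level of 15.33, 15.29, 15.26 and 15.905 in mutant replicates 1 to 4, against 15.14 to 15.30 in control hearts. Replicate 4 was also the highest mutant heart at E11.5 in *Rgs6* and in the pericyte and smooth muscle levels. How far the r values rest on this heart was not tested. The 10 skeletal muscle markers had 10.20 to 10.47 in mutant hearts against 10.07 to 10.33 in control hearts at E11.5. These correlations share arrays and normalisation, and the part of any of these markers in the *Rgs6* value was not tested. *Gnb5*, the obligatory partner of R7 proteins, had a log2 FC of 0.12 at E13.5 (adjusted p = 1), and *Rgs7bp*, which anchors R7 complexes at the membrane, had -0.55 at E11.5 (standard error 0.14, adjusted p = 0.143) and -0.52 at E13.5 (standard error 0.14, adjusted p = 0.502). In *Rgs7bp* the mutant hearts were apart from the controls at both stages, between 7.81 and 8.50 against 8.61 to 8.93 at E11.5 and between 8.10 and 8.31 against 8.49 to 8.85 at E13.5, on the opposite side from *Rgs6*. Groups were apart in 3.93% of all genes at E11.5 and in 4.08% at E13.5.

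The genes whose values were most like those of *Rgs6* over the 16 hearts were *Igfbp3*, a binding protein of insulin-like growth factors (r = 0.909), *Mr1*, which presents antigen to a class of T cells (0.906), the small GTPase *Rab33a* (0.906), *Casq2* (0.898) and the tyrosine kinase *Ptk2b* (0.893). All 5 had a higher mean in mutant hearts at E11.5, by 0.85, 1.23, 0.60, 1.69 and 0.43 on the log2 scale, and at E13.5, by 0.45, 0.86, 0.37, 0.56 and 0.41. All 5 were also higher at E13.5 than at E11.5 in control hearts, by 1.07, 1.35, 0.66, 2.17 and 0.40. The raw values hold the group means, so genes picked by this likeness tend to share the directions of *Rgs6*. Those directions are no separate result. *Casq2*, for example, was 11.56, 10.998, 11.39 and 10.97 in mutant hearts, against 9.36, 9.37, 9.72 and 9.71 in control hearts at E11.5. After subtracting group means, *Rgs6* was most like *Fam185a* (r = 0.885), *Tmeff1* (0.875), *Rusc1* (0.856), *Retsat* (0.848) and *Ssxb10* (0.843), none of them among the genes named for raw values.

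**Figure D3:**
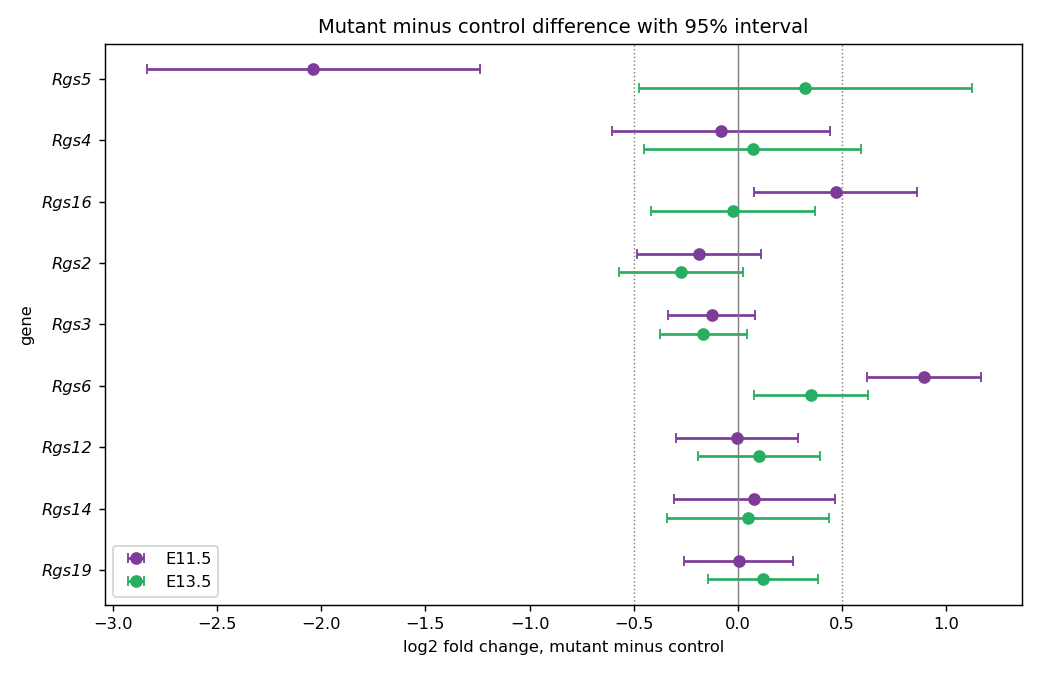
Log2 fold change of mutant minus control hearts (horizontal axis) for the 9 measured Rgs genes at E11.5 and E13.5, with points for the estimate from 4 hearts per group and lines for its 95% interval, and dotted lines at a log2 fold change of 0.5 in size. Rgs5 at -2.04 and Rgs6 at 0.90 lie outside the dotted lines at E11.5, and all 9 estimates lie within them at E13.5.

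Of the other R4 genes, *Rgs4* lay close to control at both stages. It encodes an inhibitor of Gi and Gq signalling and is the neighbour of *Rgs5*, and the genes point towards each other. Its signal was 6.85, 6.01, 6.55 and 6.17 in mutant hearts, against 6.85, 6.22, 6.69 and 6.15 in control hearts at E11.5, and 6.95, 7.02, 6.996 and 6.52 against 6.16, 6.67, 7.06 and 7.30 at E13.5. The groups overlapped fully, with log2 FC values of -0.08 and 0.07 (standard error 0.25 each, adjusted p = 1 at E13.5), and the E13.5 value turned to -0.14 without control E13.5 replicate 1. Within groups the genes nevertheless deviated together (r = 0.709 over 16 hearts). Of the other genes near *Rgs5*, the closest measured on each side, *Lrrc52*, *Rxrg*, *Nuf2*, *Ccdc190* and *Hsd17b7*, covered log2 FC values of -0.33 to 0.35 at E11.5 (E13.5: -0.33 to 0.12), and none was called. Around *Rgs6*, the genes *Map3k9*, *Pcnx*, *Sipa1l1*, *Dpf3*, *Dcaf4* and *Zfyve1* covered -0.06 to 0.07 at E11.5 (E13.5: 0.03 to 0.17), again with no call.

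*Rgs16*, an R4 gene induced by receptor signalling in several tissues, had the third largest difference of the 9 genes at E11.5. It was 8.66, 7.86, 8.73 and 8.88 in mutant hearts, against 8.04, 7.73, 8.31 and 8.17 in control hearts, so that 3 mutant hearts lay above all controls and replicate 2 lay among them. The log2 FC was 0.47 (standard error 0.18), 0.69 without mutant replicate 2 and 0.20 when the 3 hearts that stand apart were left out. At E13.5 the values were 8.72, 8.56, 8.48 and 8.75 in mutant hearts, against 8.54, 8.67, 8.79 and 8.60 in control hearts, which gave -0.02 on the log2 scale (adjusted p = 1 by limma, standard error 0.18). The effect at E13.5 minus that at E11.5 was -0.49 (standard error 0.26, not tested).

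*Rgs2*, an R4 protein that prefers Gq and is a regulator of vascular tone, was slightly lower in mutant hearts at both stages without passing the test. It ranged from 7.09 to 7.55 in mutant hearts against 7.29 to 7.85 in control hearts at E11.5, and from 7.59 to 7.95 against 7.90 to 8.30 at E13.5. The log2 FC values were -0.19 and -0.27 (standard error 0.14 each, unadjusted p = 0.0688 and adjusted p = 1 at E13.5). *Rgs3*, a longer R4 protein, had log2 FC values of -0.12 and -0.17 (standard error 0.10 each, adjusted p = 1 at E13.5) in its brighter probe set and of -0.08 and -0.16 in its other probe set.

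The R12 and RZ genes also stayed near control. *Rgs12*, a multidomain scaffold, lay between 8.48 and 8.89 in mutant hearts against 8.23 to 8.91 in control hearts at E11.5, with log2 FC values of -0.0023 at E11.5 and 0.10 at E13.5. *Rgs14*, which joins G-protein to Ras signalling and is studied mostly in brain, lay between 6.76 and 7.45 against 6.76 to 7.31, with 0.08 and 0.05. *Rgs19*, also called GAIP, which binds inhibitory alpha subunits, lay between 9.29 and 9.70 against 9.28 to 9.69, with 0.0046 and 0.12. Standard errors were 0.14, 0.18 and 0.12 for these 3 genes, and the adjusted p was 1 for each at E13.5.

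Over the 9 genes, 0 were called at E13.5, where 0.0451% of all genes were. Without adjustment 1 of the 9, *Rgs6*, had p under 0.05, as did 3.94% of all genes. The median log2 FC of the 9 genes was 0.07 at E13.5 and -0.0023 at E11.5, beside medians of 0.0042 and 0.0039 over all genes. Their 95% intervals at E13.5 allow differences of up to 1.12 in *Rgs5* and of up to 0.63 in *Rgs6*, so values that missed the threshold are not shown to be equal.

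With stage, 7 of the genes could be tested, all measured members but *Rgs5* and *Rgs6*. In control hearts 2 of 7 were called higher at E13.5, *Rgs12* and *Rgs16*, and 0 lower, where 16.5% of all genes were called higher and 12.3% lower. In mutant hearts 2 of 7 were called higher, *Rgs12* and *Rgs19*, and 0 lower, beside 16.8% and 12.8% of all genes. Their median log2 FC was 0.39 in mutant hearts and 0.43 in control hearts, and that over all genes was 0.04 in each. Counts this small give no result about these genes as a group.

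*Rgs12* lay between 9.25 and 9.38 in mutant E13.5 hearts against 8.48 to 8.89 in mutant E11.5 hearts, and between 9.10 and 9.35 in control E13.5 hearts against 8.23 to 8.91 in control E11.5 hearts. It rose with stage in both genotypes, with log2 FC values of 0.63 in mutant hearts (standard error 0.14, adjusted p = 0.00214, limma) and 0.52 in control hearts (standard error 0.14, adjusted p = 0.00724). In mutant hearts the call was lost after quantile normalisation over all arrays (0.43, adjusted p = 0.0302) and when the 3 hearts described above were omitted (0.47, adjusted p = 0.0424), where the fold missed the threshold. In control hearts it was lost after quantile normalisation (0.34, adjusted p = 0.0820), without the 3 hearts, without control E11.5 replicate 3 (0.37) and without control E13.5 replicate 1 (0.47).

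*Rgs16* rose in control hearts, by 0.59 on the log2 scale (adjusted p = 0.0186 by limma, standard error 0.18). Its control values were 8.54 to 8.79 at E13.5 against 7.73 to 8.31 at E11.5, and the stages did not overlap, as for 8436 of 19937 genes. In mutant hearts it was 8.48 to 8.75 at E13.5 against 7.86 to 8.88 at E11.5, a log2 FC of 0.10 (adjusted p = 0.702). The control call was lost after quantile normalisation (0.45, adjusted p = 0.0762), without control E11.5 replicate 2 (0.48, adjusted p = 0.0629) and without control E13.5 replicate 4 (0.54, adjusted p = 0.0514). *Rgs19* rose in mutant hearts, where it was 9.89 to 10.32 at E13.5 against 9.29 to 9.70 at E11.5 (a log2 FC of 0.54 with an adjusted p = 0.00273 and a standard error of 0.12). In control hearts it was 9.82 to 10.06 against 9.28 to 9.69, and the log2 FC of 0.43 had an adjusted p = 0.0124 but missed the fold threshold. The mutant call was lost after quantile normalisation (0.31, adjusted p = 0.0586), and when replicate 2 of the E11.5 mutants or replicate 1 of the E13.5 mutants was omitted (0.46 each). The difference between the genotypes in these stage changes was not tested.

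The remaining genes did not pass both thresholds with stage. *Rgs2* had 0.39 in mutant hearts (adjusted p = 0.0339, limma) and 0.48 in control hearts (adjusted p = 0.0126), just under the fold threshold. It was called in control hearts after median centring (0.53, adjusted p = 0.00949) and on omission of replicate 1 (0.575) or 2 (0.501) of the E11.5 controls, or of replicate 2 (0.52) or 5 (0.53) of the E13.5 controls, and in mutant hearts without the 3 hearts (0.501, adjusted p = 0.0490). *Rgs3* had -0.48 in mutant hearts (adjusted p = 0.00133) and -0.44 in control hearts (adjusted p = 0.00256), and after quantile normalisation it was called lower in both, at -0.69 and -0.65. Its other probe set went the other way, with 0.21 in mutant hearts and 0.29 in control hearts (adjusted p = 0.159 and 0.0582), so the 2 probe sets of *Rgs3* disagree on its change with stage. *Rgs4* had 0.47 and 0.32 (adjusted p = 0.133 and 0.309) and *Rgs14* had 0.01 and 0.04 (adjusted p = 0.966 and 0.869) in mutant and control hearts.

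**Figure D4:**
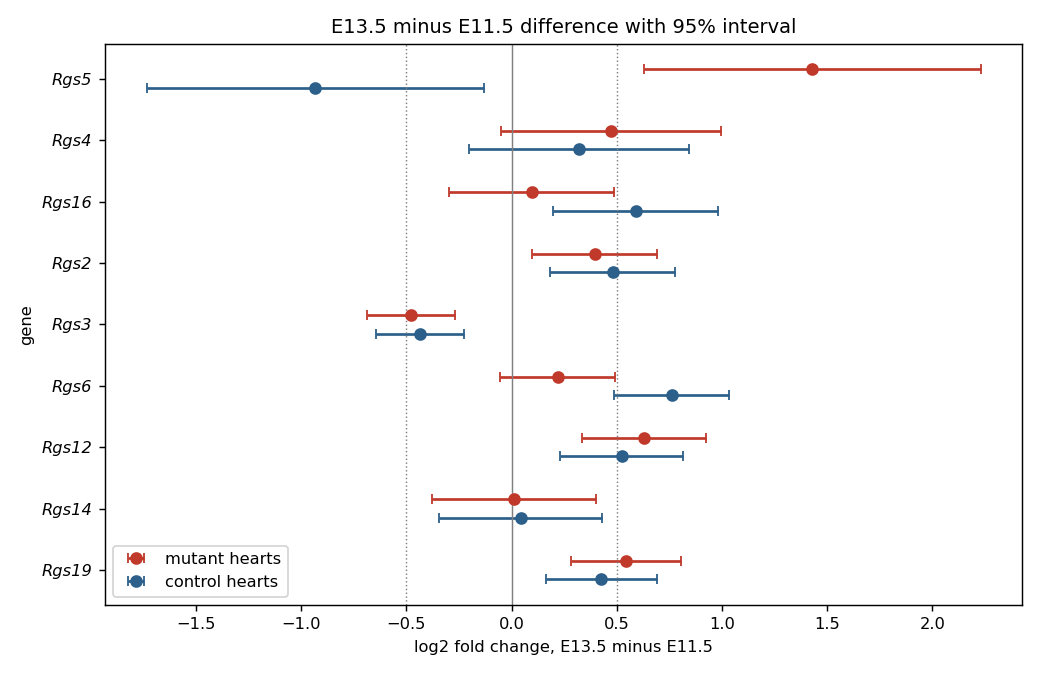
Log2 fold change of E13.5 minus E11.5 hearts (horizontal axis) in mutant and in control hearts for the 9 measured Rgs genes, with points for the estimate from 4 hearts per group, lines for its 95% interval and dotted lines at 0.5 in size. Rgs5 lies at 1.43 in mutant hearts and at -0.93 in control hearts, while each of the other 8 genes has the same sign in both.

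Further genes of the pathway were examined as 7 lists with 101 measured genes. At E11.5 0 were called, where 0.251% of all genes were, and 11 had an unadjusted p under 0.05, beside 9.34% of all genes. At E13.5 0 were called, beside 0.0451% of all genes, and 15 had an unadjusted p under 0.05, beside 3.94% of all genes. Of these 15 genes, 10 were receptors. The other 11 RGS genes had a median log2 FC of 0.06 at E11.5 and of 0.01 at E13.5. The lowest of them was *Rgs18*, an R4 gene of platelets and megakaryocytes, with 5.84, 6.63, 6.26 and 7.21 in mutant hearts, against 7.39, 7.03, 7.77 and 7.93 in control hearts at E11.5. Its log2 FC was -1.05 at E11.5 (adjusted p = 0.396, limma) and -1.19 at E13.5 (adjusted p = 0.957), with a standard error of 0.39 and overlapping groups at both. Beside it, 7 platelet markers had a summed level of 10.98 to 11.85 in mutant hearts against 11.33 to 12.26 in control hearts at E11.5, and of 10.52 to 11.46 against 11.43 to 12.54 at E13.5, and their part in the *Rgs18* value was not tested. The next gene by p was *Rgs21*, with -0.22 and 0.21.

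Among alpha subunits, which RGS proteins act on, *Gna14* showed 0.42 on the log2 scale at E11.5 and *Gnal* 0.21, while at E13.5 *Gnai1*, an inhibitory subunit, had -0.36 and *Gna14* 0.26 (adjusted p = 0.476, 0.723, 0.913 and 1, limma). The 15 measured alpha subunits had medians of -0.01 at E11.5 and 0.0020 at E13.5. The 16 beta and gamma subunits had medians of -0.01 and 0.06, with *Gng10* (0.22) and *Gng4* (0.29) leading at E11.5 and *Gng10* (0.30) and *Gng3* (0.27) at E13.5. Of the 7 receptor kinases and arrestins, *Arrb1* and *Grk5* had -0.29 and 0.15 at E11.5, and *Grk4* and *Arrb1* 0.27 and -0.08 at E13.5, and of the partner proteins *Gpr179* had -0.10 at E11.5.

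Of 40 listed receptors 27 were measured, of which 9 had a positive log2 FC at each stage, with medians of -0.11 at E11.5 and -0.06 at E13.5. *P2ry1*, a purinergic receptor, was 8.13, 7.82, 7.84 and 7.77 in mutant hearts, against 8.34, 8.37, 8.31 and 8.56 in control hearts at E11.5, a difference of -0.50 (adjusted p = 0.130, limma). At E13.5 it was 8.15, 8.23, 7.73 and 7.89 against 8.54, 8.76, 8.69 and 8.48 (log2 FC -0.62, adjusted p = 0.117), so mutant and control hearts were apart at both stages without a call. *Ednrb*, an endothelin receptor, had -0.51 at E11.5 (adjusted p = 0.226) and -0.54 at E13.5 (adjusted p = 0.572). *Chrm2*, the muscarinic receptor of the sinus node and atria, had -0.61 at E11.5 (adjusted p = 0.273) and -0.73 at E13.5 (adjusted p = 0.488), with E13.5 values of 9.80, 9.46, 9.07 and 9.61 in mutant hearts against 9.91, 10.24, 10.47 and 10.25 in control hearts. Like *P2ry1*, *Ednrb* and *Chrm2* had groups apart at both stages without a call. Groups were apart in 3.93% of all genes at E11.5 and in 4.08% at E13.5.

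Among 20 effectors, the medians were -0.02 at E11.5 and -0.03 at E13.5. *Kcnj3*, a subunit of the potassium channel that Gi opens through beta and gamma subunits, was 8.32, 8.13, 8.66 and 8.23 in mutant hearts against 9.003, 9.29, 9.23 and 9.21 in control hearts at E13.5, which gave -0.85 on the log2 scale (adjusted p = 0.203 by limma, standard error 0.18). With array weights *Kcnj3*, *P2ry1* and *Rgs7bp* passed at E13.5. *Plcb4*, a phospholipase activated by Gq, had 0.48 at E11.5 (standard error 0.12, adjusted p = 0.163), with 9.67, 9.94, 9.63 and 10.01 in mutant hearts, all above the control hearts at 9.46, 9.44, 9.30 and 9.13. Groups were apart in 3.93% of all genes at E11.5. The adenylyl cyclases *Adcy9* at E11.5 and *Adcy4* at E13.5 had -0.33 and -0.25 (adjusted p = 0.397 and 1).

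**Figure D5:**
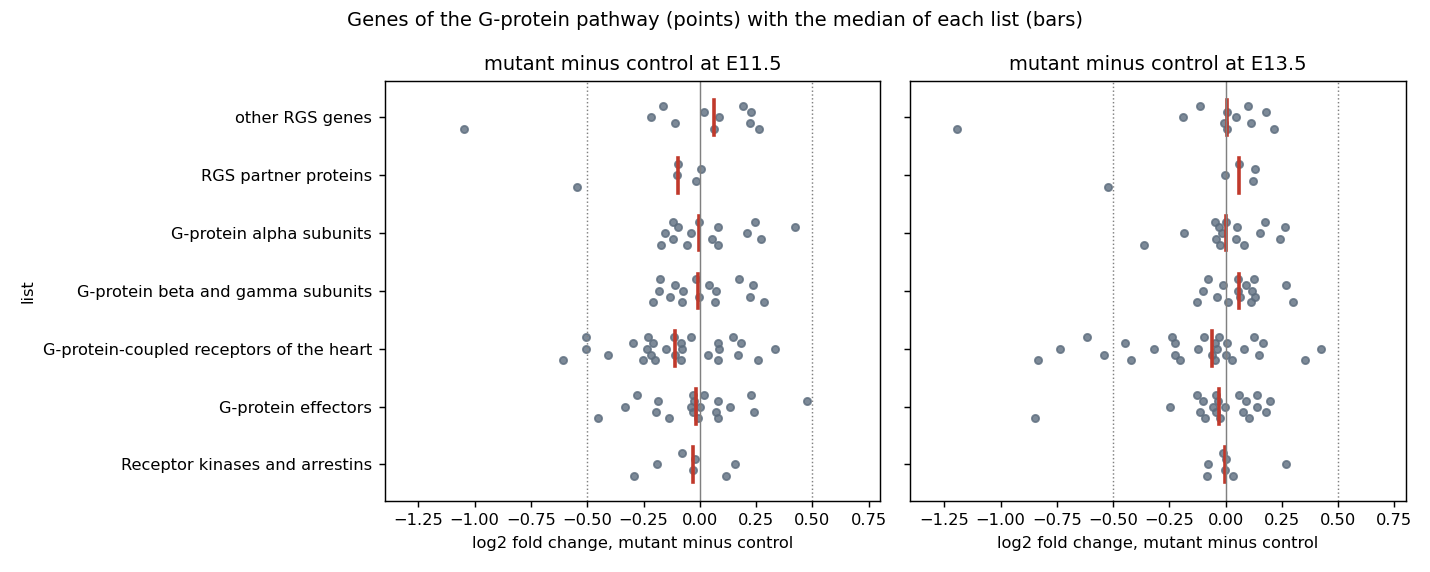
Log2 fold change of mutant minus control hearts (horizontal axes) at E11.5 and E13.5 for 101 genes in 7 lists of the G-protein pathway (rows), with points for genes, bars for the median of each list and dotted lines at 0.5 in size. Medians lie between -0.11 and 0.06, and Rgs18 is the point farthest left in both panels.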

How the data were processed

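RNA of 16 embryonic hearts, mutant or control, at E11.5 or E13.5, was hybridised to 16 arrays. The authors processed the arrays with RMA from the affy package, and the deposited values are log2 signals per probe set, which were used unchanged. Versions, array dates and whether both stages were processed in one run are not given in the sources used here, and the differing spread of the stages affects stage changes most. The values held no missing entries and no column without a sample. Of 34760 probe sets, 11799 named no gene and 1321 several genes in the platform annotation. These were fitted, but only the 21640 that named a single gene were used for genes, with the brightest probe set over the 16 arrays standing for a gene.

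All arrays were fitted together in limma 3.58.1 (R 4.3.3), each group having its own mean, which left 12 residual degrees of freedom. The Benjamini-Hochberg adjustment ran over all probe sets of a comparison. A gene was called where the log2 FC was over 0.5 in size with an adjusted p under 0.05. The fit was tested on simulated data. Members and lists were chosen with earlier results of these data known. Genes named were all members, the called genes of each pathway list or else the 2 with the smallest p per comparison, the nearest measured genes beside *Rgs5* and *Rgs6*, the 5 most like each, and marker genes beside a result. *Rgs7bp*, *Gnb5* and the marker genes beside *Rgs5* and *Rgs6* were picked for their known roles. Marker levels are log2 of summed linear signals. Alternatives were quantile normalisation, median centring, array weights, a fit per stage, a robust prior with a trend, a filter at percentile 40, probe sets of single genes only, the median probe set, a replicate block, a Y-linked covariate, no fold threshold and hearts left out. Promoters and gene neighbours came from RefSeq tables for GRCm38.p6. Figures were drawn with matplotlib 3.10.9 (Python 3.11.15).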

Additional observations from a re-analysis of the deposited data

Results flagged for a closer look

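Of 36 groups of 4 hearts (9 genes in 4 groups), 3 held a heart far from the others by Dixon's criterion at the 95% level, where chance gives about 1 in 20 groups. For *Rgs4*, mutant E13.5 replicate 4 stood at 6.52, against 6.95 to 7.02 in the other mutant hearts. For *Rgs6*, control E13.5 replicate 1 stood at 9.004, against 9.22 to 9.23 in the other controls. For *Rgs12*, control E11.5 replicate 3 stood at 8.23, against 8.79 to 8.91 in the other controls. The *Rgs12* heart passed the criterion by the smallest margin of the 3.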

How the results depend on the processing

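Over 24 alternatives the log2 FC at E11.5 ranged from -2.37 to -1.67 for *Rgs5* and 0.83 to 0.96 for *Rgs6*, values that chose these genes and whose signs are fixed by groups that do not overlap. At E13.5, 0 of the 9 genes were called in all 28 alternatives. Hearts of the same replicate number did not deviate together over all genes. As litters are not given, whether the numbers pair the hearts is not settled by this. With the number as a replicate block the log2 FC at E11.5 was -2.04 for *Rgs5* and 0.90 for *Rgs6*, and with stage in control hearts *Rgs12* was no longer called (0.48, adjusted p = 0.0346) while *Rgs2* was (0.53, adjusted p = 0.0211). Of the genes tested with stage, 2 were called in control hearts, against 1 after quantile normalisation, 1 without the 3 hearts that stand apart, 5 with no fold threshold and 1 to 3 with each heart left out in turn. In mutant hearts 2 were called, against 1 after quantile normalisation, 4 with no fold threshold and 1 to 2 with each heart left out. After quantile normalisation the calls of *Rgs12* and *Rgs16* in control hearts, and of *Rgs12* and *Rgs19* in mutant hearts, were lost. The 1 gene called there was *Rgs3*, lower at E13.5, with -0.65 in control hearts and -0.69 in mutant hearts. Pathway genes called at E13.5 numbered 0, against 3 with array weights, 1 without dim probe sets and 0 to 1 with each heart left out, where *Kcnj3* passed without mutant E11.5 replicate 1. Signs that turned belonged to values near 0 that were not called. *Rgs4* at E13.5 was -0.14 without the 3 hearts and -0.14 to 0.24 with each heart left out. *Rgs14* was -0.055 to 0.16 at E13.5, -0.047 to 0.14 with stage in control hearts and -0.10 to 0.13 with stage in mutant hearts, where a Y-linked covariate gave -0.015. *Rgs16* was -0.063 to 0.025 at E13.5 and -0.13 to 0.21 with stage in mutant hearts, where quantile normalisation gave -0.080. The causes were not tested. Each stage fitted alone gives no stage change. With 4 hearts per group, the standard error of *Rgs5* (0.38) leaves differences near 1 at E13.5 undetectable.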
